A study of Chlamydomonas reinhardtii with 34 samples.

Results

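The cytosolic ribosome builds the proteins encoded by the nucleus. Each of its 2 subunits is made of ribosomal RNA and a large set of ribosomal proteins, which are translated in the cytosol, imported into the nucleus and assembled there. Because each ribosome takes up 1 copy of most of these proteins, their genes are known in many eukaryotes for high transcript levels that move together with growth and nutrient supply. Ribosomes also hold much of the nitrogen of a cell.

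The members described here were 35 loci of the green alga Chlamydomonas reinhardtii listed as proteins of the cytosolic 80S ribosome, of 17301 gene models in all. They were matched to the deposited table by the identifier before the transcript suffix, and each of the 35 was present. The rule that lists them uses no measured value. Members are called by their loci, because the tables used here pair no protein name with an identifier. Which subunit each locus belongs to is therefore not given, and the label was not checked against protein sequences.

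Transcripts were sequenced in 34 libraries, 17 from the strain sta6 (CC-4348) and 17 from the strain CC-4349. The sta6 strain is a starchless mutant of the small subunit of ADP-glucose pyrophosphorylase, an enzyme of starch synthesis, and CC-4349 was the strain it is set against. Both were grown in the light in HSM medium, washed into HSM without ammonium chloride, starved of nitrogen for 48 h and then given acetate (the boost). The light level given for every library was 25 umol photons per m2 per s. Sampling of each strain took place before the wash, and then at 0, 0.5, 2, 4, 8, 12, 24 and 48 h without nitrogen, and again at the same 8 times after the boost. The groups compared were the late boost (8 to 48 h, n = 4 per strain), the early boost (0.5 to 4 h, n = 3), late starvation (24 and 48 h without nitrogen plus 0 h of the boost, n = 3), middle starvation (8 and 12 h, n = 2), early starvation (0.5 to 4 h, n = 3) and replete cells (before the wash and at 0 h, n = 2). All cells of the boost had been starved first. Each strain is represented by 1 line, and with 1 library per strain and time point the time points of a phase stood in for replicates. Successive samples of 1 culture are not independent, so the p-values are too small in this respect.

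Read totals implied by the steps of the values were lowest at 5.72 M (sta6, 2 h without nitrogen) and highest at 53.9 M (sta6, 12 h after the boost), with 10.7 to 24.1 M for the libraries of CC-4349. The members other than Cre03.g210050 held between 3037 and 323372 reads each in any library, so counting error was small beside the spread between libraries. The locus used to check the strain labels, Cre03.g188250.t1.1, lay between 0.957 and 7.45 RPKM in the libraries of sta6 and between 100 and 304 RPKM in those of CC-4349.

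The members were among the most abundant transcripts of the cell. On the RPKM scale, which divides reads by the length of the gene model and by the library total, 34 of the 35 stood among the 100 highest means of the 17301 models. The median of the member means was 3063 RPKM, against 8.31 RPKM over the 14513 models with a mean of at least 1 RPKM that entered the tests. Cre06.g272800 was the most abundant with a mean of 7479 RPKM, followed by Cre12.g494050 and Cre02.g143050. At the other end Cre17.g701200 averaged 1658 RPKM and Cre14.g630100 averaged 1910 RPKM. Cre03.g210050 stood apart from the rest at 108 RPKM, which ranked it 704 by mean. The order of magnitude was thus shared by 34 members, with a gap below them to the last. The implied lengths of the members' models ran from 312 to 1624 bases, with a median of 796 bases. Of the 35 identifiers 9 (25.7%) began with Cre12, as did 9.66% of all models, and no pair of members was adjacent in the reference table.

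Together the members took up a larger share of each library late in starvation than before the wash. In sta6 they held 9.57% of the summed RPKM before the wash, 19.2% at 24 h without nitrogen and 20.8% after 48 h of the boost. For CC-4349 the shares at the same times were 12.4%, 18.9% and 19.7%. As a share of implied reads, which does not correct for length, the members held 4.97%, 10.2% and 11.1% in sta6 and 6.56%, 9.42% and 10.1% in CC-4349. Both measures therefore started lower in sta6 and ended higher in sta6. Growth was not steady, since in CC-4349 the share of implied reads was 6.18% at 2 h, 6.31% at 4 h and 9.25% at 48 h without nitrogen. RPKM is a relative measure, so more transcript of the members and less of everything else cannot be told apart, and neither can changes in the number of cells and in RNA per cell.

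**Figure D1:**
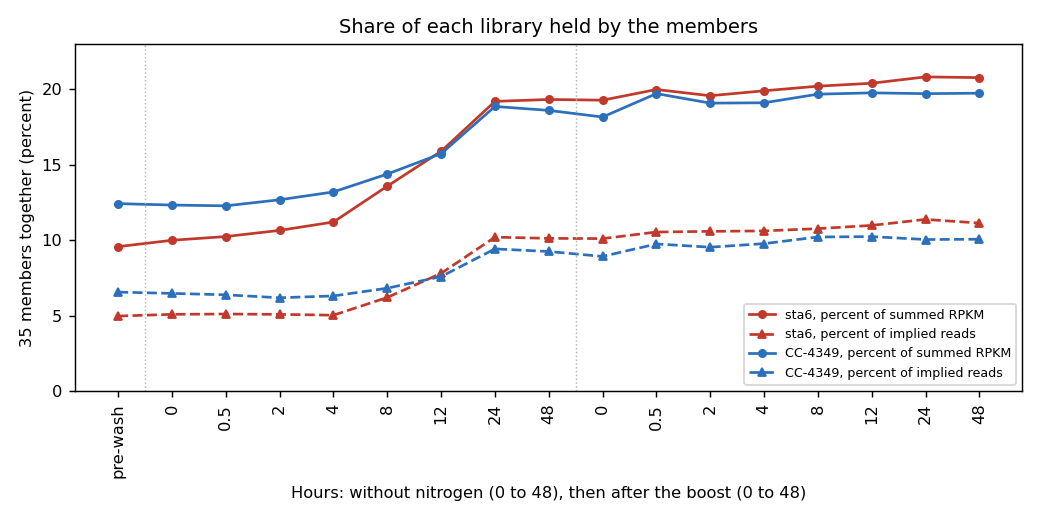
Share of each library held by the 35 members (percent, y axis) at each time point (x axis, hours), as percent of summed RPKM (solid) and of implied reads (dashed), with 1 library per point. The sta6 lines lie under those of CC-4349 up to 8 h without nitrogen and above them from 12 h on for both measures.

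The time course had a flat part, a climb and a plateau. Measured as the median over members of the change in log2(RPKM + 1) from the pre-wash library of the same strain, the members stood in sta6 at 0.030, 0.033, 0.050 and 0.026 at 0, 0.5, 2 and 4 h without nitrogen. The values for 8, 12, 24 and 48 h were 0.32, 0.66, 1.09 and 1.03. In CC-4349 the medians were -0.019, -0.044, -0.079 and -0.057 over the first 4 h, and 0.058, 0.23, 0.54 and 0.51 for 8, 12, 24 and 48 h. The climb thus fell between 4 and 24 h in both strains. Nearly every member took part in each step of it. From 4 to 8 h, 35 members stepped up in sta6 and 33 in CC-4349, from 8 to 12 h 35 did in each strain, and from 12 to 24 h 35 did in each strain. After 24 h the median hardly moved. After the boost it lay between 1.06 and 1.19 in sta6 from 0.5 to 48 h, and between 0.52 and 0.63 in CC-4349.

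Single libraries set against the pre-wash library have no test, and a count of members past 2-fold is a description. At 24 h without nitrogen, 21 of 35 members were at least 2-fold above the pre-wash library in sta6, where 15.5% of all models tested were. In CC-4349 at 24 h 0 members were, against 18% of models. At 48 h after the boost the counts were 25 members in sta6 (15.4% of models) and 1 member in CC-4349 (19.1% of models).

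**Figure D2:**
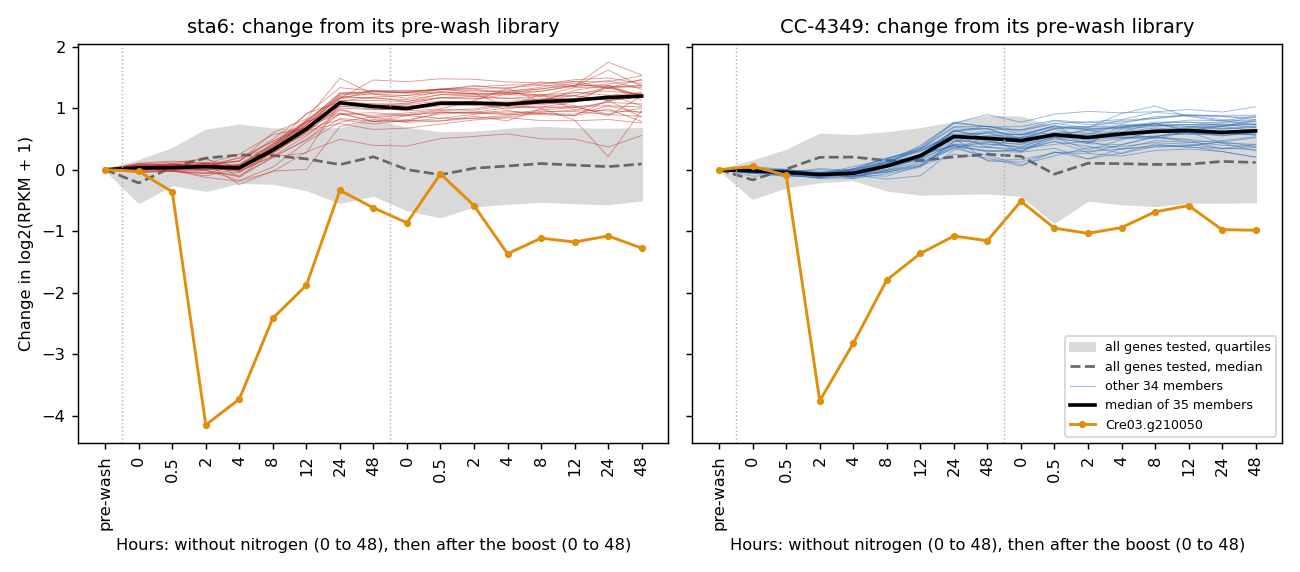
Change in log2(RPKM + 1) from the pre-wash library of the same strain (y axis) by time point (x axis, hours) for 34 members (thin lines), the median of 35 members (black) and Cre03.g210050 (orange), with the quartiles and median of all genes tested in grey. The member median reaches 1.09 in sta6 and 0.54 in CC-4349 at 24 h, while Cre03.g210050 drops at 2 h.

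In the first hours without nitrogen 34 members stayed close to their replete level on the deposited scale. In early starvation set against replete cells, averaged over the strains, 0 members were called higher, where 34.7% of all models tested were, and 1 was called lower, where 12.1% were. A call here and below is an adjusted p under 0.05 in limma (Benjamini-Hochberg over 14513 models). The median change of the members was -0.019 log2 units and that of all models 0.23. Among the other 34 members the changes ran from -0.089 for Cre02.g091100 to 0.031 for Cre02.g106600. Cre01.g027000 (-0.056) and Cre08.g382500 (-0.054) were the next lowest, and Cre01.g011000 (0.028), Cre02.g102250 (0.026) and Cre12.g494050 (0.022) the next highest. This direction depends on how libraries are scaled. Both other scalings moved the median of all models by -0.19, and the members went opposite ways under them. After median-of-ratios scaling 30 members were called, all lower, with a median of -0.26 (6319 models were called in either direction). After quantile normalization 21 were called, 20 higher and 1 lower, with a median of 0.19 (5933 models in either direction). Relative to the median of all models the members lay at -0.25 on the deposited scale, at -0.30 after median-of-ratios scaling and at 0.16 after quantile normalization.

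The member called lower in early starvation was Cre03.g210050, at -2.49 ± 0.53 log2 units (SE, limma adjusted p = 0.000644). In sta6 its levels were 210, 206 and 164 RPKM before the wash and at 0 and 0.5 h, then 10.9, 15, 38.7 and 56.5 RPKM at 2, 4, 8 and 12 h. In CC-4349 they were 190, 197 and 178 RPKM before the wash and at 0 and 0.5 h, then 13.1, 26, 54.1 and 73.3 RPKM at 2, 4, 8 and 12 h. The drop fell in the same interval in both strains, and no level from 2 to 12 h overlapped those of the first 3 libraries of either strain. Between 0.5 and 2 h it was 13.8-fold in sta6 and 12.7-fold in CC-4349. Of the 14513 models tested, 8 (0.0551%) fell as far over that interval in both strains. By 24 h its level was 166 RPKM for sta6 and 89.5 RPKM for CC-4349. From 0.5 to 48 h after the boost it stayed between 81 and 200 RPKM in sta6 and between 92.2 and 126 RPKM in CC-4349. Its late starvation level was not called different from replete by the test (log2 change -0.77 ± 0.53, limma adjusted p = 0.210). It was 166, 136 and 115 RPKM in late starved sta6 and 89.5, 84.8 and 133 RPKM in late starved CC-4349. Each of these lay below both replete libraries of the same strain, so a return to the replete level was not shown. With 64 to 5242 reads per library, it was measured well above the floor of counting.

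**Figure D3:**
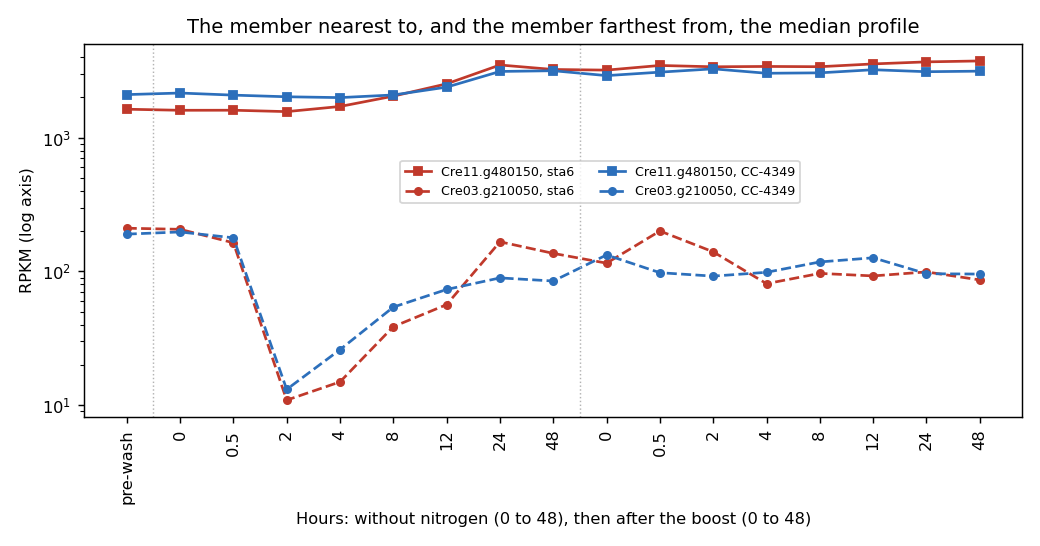
RPKM on a log axis (y axis) by time point (x axis, hours) of the member nearest to the median profile, Cre11.g480150 (squares, solid), and of the member farthest from it, Cre03.g210050 (circles, dashed), with 1 library per point. The nearest member lies between 1561 and 3732 RPKM, and Cre03.g210050 goes through a minimum of 10.9 RPKM (sta6) and 13.1 RPKM (CC-4349) at 2 h without nitrogen.

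By middle starvation most members had changed in the average over the strains and in sta6, but few in CC-4349. In 8 and 12 h cells set against replete cells, 30 members were called higher (36% of models were) and 1 lower (13.4%), again Cre03.g210050 at -1.87 ± 0.58 (limma adjusted p = 0.00954). The median change was 0.32 log2 units for the members and 0.24 for all models. Within sta6 30 members were called higher (26.9% of models) and within CC-4349 4 (23%). The median change was 0.49 in sta6, against 0.30 for all models, and 0.15 in CC-4349, against 0.21 for all models. The 4 that passed in neither direction were Cre08.g382500, Cre02.g091100, Cre01.g027000 and Cre02.g143050, with changes of 0.048 to 0.086. After median-of-ratios scaling 1 member was called, lower, and the median was 0.039, so the rise in this phase does not hold on every scale.

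In late starvation the rise was general. Set against replete cells and averaged over the strains, 34 of 35 members were called higher (42.8% of models were) and 0 lower (21.6%). Only 1 member, Cre09.g400650, passed with at least a 2-fold change, where 18.4% of models did. The median change was 0.71 log2 units for the members and 0.26 for all models. Cre09.g400650 stood highest at 1.03 ± 0.060 (limma adjusted p = 4.06e-13). Its levels were 3906, 3901 and 3832 RPKM in late starved sta6, against 1664 and 1630 RPKM in replete sta6. In CC-4349 they were 3561, 3921 and 3595 RPKM in late starvation, against 2108 and 2080 RPKM in replete cells. The late starvation libraries lay above the replete ones with no overlap in either strain. Cre12.g512600 (0.99), Cre02.g102250 (0.96) and Cre02.g106600 (0.95) followed. The members that rose least were Cre02.g091100 (0.30 ± 0.067, limma adjusted p = 0.000314), Cre14.g621450 (0.46) and Cre10.g417700 (0.53). Cre02.g091100 had 2286, 2134 and 2119 RPKM in late starved sta6, against 1624 and 1644 RPKM in replete sta6, and 2226, 2061 and 1856 RPKM in late starved CC-4349, against 1755 and 1815 RPKM in replete CC-4349. On the deposited scale the late libraries of that member lay above the replete ones in each strain. After median-of-ratios scaling its change was 0.00071 (limma adjusted p = 0.995), and Cre14.g621450 (0.16, limma adjusted p = 0.119) and Cre10.g417700 (0.23, limma adjusted p = 0.0504) did not pass either. The rise of the group was also called after median-of-ratios scaling (31 higher, median 0.41) and after quantile normalization (30 higher, median 0.50), where Cre14.g621450 reversed to -0.042 and Cre10.g417700, at 0.046, did not pass. Relative to the median of all models the member median was 0.45 on the deposited scale, 0.39 after median-of-ratios scaling and 0.47 after quantile normalization.

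Apart from Cre03.g210050, the members moved as a block. That member was set aside here after its values were seen, and the spread of the change is wider with it included. The SD of the late starvation change over the 34 members other than Cre03.g210050 was 0.164 log2 units, against 1.14 over all models tested. The levels of these 34 members kept their spread as well. The highest of the 34 exceeded the lowest 4.36-fold in late starvation and 4.99-fold in replete cells. The distance of each member from the median profile, taken as the root mean square over the 34 libraries of its own centred log2 value minus the median over members, had a median of 0.107. Cre11.g480150, chosen for this after its values were seen, was nearest. It had 3482, 3222 and 3188 RPKM in late starved sta6, against 1627 and 1598 RPKM in replete sta6, and 3115, 3154 and 2900 RPKM in late starved CC-4349, against 2092 and 2150 RPKM in replete CC-4349. Apart from Cre03.g210050 at 1.01, the farthest was Cre02.g091100 at 0.202, followed by Cre08.g382500. Among the 14478 other models tested the median distance was 0.598, and 54 of them (0.373%) lay as near to the profile as Cre02.g091100. Most of these were also abundant, since 38 of the 75 other models with a mean of at least 1000 RPKM (50.7%) lay that near. The profile was thus shared by many highly abundant transcripts outside the list of members. No protein names were available for them, so whether they encode ribosomal proteins missing from the list was not tested. The limit was set by the members themselves, so their own count within it is no result. Across the 34 members the late starvation change had a Spearman rho of 0.31 with the implied length and of -0.32 with the replete level, given as a description over loci that share libraries.

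The strains differed in the size of the late rise. Within sta6 34 members were called higher in late starvation than in replete cells (32.6% of models), with a median of 1.03, and 18 of them passed with at least a 2-fold change (18% of models). Within CC-4349 32 members were called higher (35.8% of models), with a median of 0.49, and 0 passed at 2-fold (20.1% of models). The test of the difference between the 2 changes called 26 members, all with the larger rise in sta6, where 1.38% of models were called in that direction. The median difference was 0.52 log2 units for the members and -0.12 for all models, and each of the 35 values was above 0 (40.1% of models). The largest was that of Cre12.g520500, singled out after its values were seen for this comparison, with 2591, 3185 and 3126 RPKM in late starved sta6 against 1160 and 1199 RPKM in replete sta6. In CC-4349 it had 2188, 2321 and 2258 RPKM in late starvation against 1700 and 1708 RPKM in replete cells. Its change was 0.92 ± 0.13 log2 units larger in sta6 (limma adjusted p = 6.7e-05). Cre02.g143050 came next at 0.81 ± 0.12 (limma adjusted p = 0.000126). It had 6655, 6431 and 6291 RPKM in late starved sta6 against 3156 and 3394 RPKM in replete sta6, and 4839, 4646 and 4237 RPKM in late starved CC-4349 against 4070 and 4052 RPKM in replete CC-4349. Its change within CC-4349, 0.17 ± 0.084, did not pass (limma adjusted p = 0.0973).

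The 9 members that missed the threshold for this difference, named after their values were seen, were Cre01.g027000, Cre02.g091100, Cre03.g210050, Cre06.g272800, Cre06.g310700, Cre08.g382500, Cre12.g494050, Cre12.g498250 and Cre12.g528750. The calls over all models changed with the libraries too, from 499 in either direction to 285 without the libraries at 0 h after the boost. Where a replete library was left out, fewer samples entered the fit. The count of members depends on which libraries enter. It was 17 without the pre-wash or the 0 h library of sta6, 16 without the pre-wash and 14 without the 0 h library of CC-4349, 6 when the pre-wash libraries alone stood for replete cells, and 16 without the libraries at 0 h after the boost, which belong to late starvation. After median-of-ratios scaling 17 members were called (411 models in either direction) and after quantile normalization 4 (400 models), with medians of 0.65 and 0.27. Relative to the median of all models the member difference was 0.64 on the deposited scale and 0.65 and 0.27 on these scales.

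**Figure D4:**
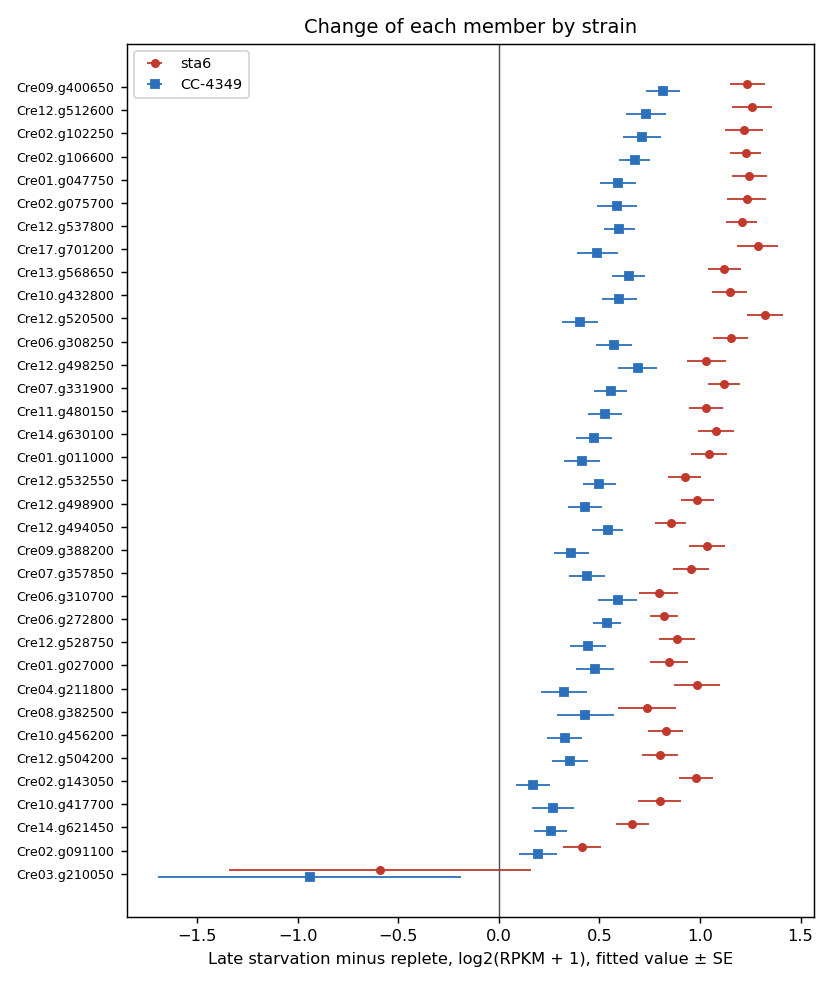
Fitted change from replete cells to late starvation in log2(RPKM + 1) with its SE (x axis) for each of the 35 members (rows) in sta6 (circles) and CC-4349 (squares), ordered by the change averaged over the strains. The sta6 value lies right of the CC-4349 value in each row, by 0.20 to 0.92.

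Before and early in starvation the members stood lower in sta6. The comparisons of strains within a phase were added after the time courses had been seen. In replete cells the median difference, sta6 minus CC-4349, was -0.40 log2 units for the members and -0.0028 for all models, and 24 members were called lower in sta6 (3.32% of models) and 0 higher (4%). Cre04.g211800 had 1433 and 1516 RPKM in replete sta6, against 2436 and 2494 RPKM in replete CC-4349, a difference of -0.74 ± 0.13 (limma adjusted p = 0.000153). In early starvation 25 members were called lower in sta6 (5.22% of models), with a median of -0.33. Before the wash the members had a median level of 1732 RPKM for sta6 and 2399 RPKM for CC-4349. At that time 34 of 35 members were lower in sta6 (50.6% of models). At 0.5 h all 35 were (52.9% of models). These replete values rest on 2 libraries per strain taken around the wash. After median-of-ratios scaling 8 members were called, where 1228 models were in either direction, against 1062 on the deposited scale. The median difference stayed between -0.40 and -0.28 under every alternative scaling, and was -0.39 between the pre-wash libraries alone.

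The strains met in middle starvation. At 8 h 33 members were still lower in sta6 (44.6% of models), at 12 h 13 were (49.8%) and at 24 h 3 were (63.5%). In middle starvation 0 members were called in either direction by limma, where 3.42% of models were called higher and 4.17% lower, and 1 passed at an unadjusted p under 0.05. The median difference was -0.042. In late starvation 4 members were called higher in sta6 (5.09% of models), namely Cre02.g143050, Cre12.g520500, Cre02.g075700 and Cre07.g357850, with a median of 0.13 over the 35 members and -0.14 over all models. In the early boost 6 were called higher (6.04% of models) and in the late boost 10 (7.79%), with medians of 0.11 and 0.12. The late starvation result depends on the scaling. After median-of-ratios scaling 13 members were called higher in sta6 (1917 models in either direction), with a median of 0.29. After quantile normalization 2 were called higher and 1 lower (2143 models), with a median of -0.056. The late starvation count was 10 without sta6 at 8 h and 9 without sta6 at 12 h without nitrogen, libraries of another phase that enter the shared estimate of spread. Set against replete cells, the change to the late boost was larger in sta6 for 25 members (1.83% of models), with a median difference of 0.52. Averaged over all 17 time points, the lower and the higher stretch of the course offset each other. The median strain difference was -0.042, 0 members were called higher in sta6 (18.9% of models) and 3 lower (27.2%), namely Cre04.g211800 (-0.20), Cre13.g568650 (-0.12) and Cre12.g494050 (-0.11). At the other end stood Cre07.g357850 (0.14), Cre02.g075700 (0.13) and Cre02.g143050 (0.12), and these did not pass. The count of 3 fell to 0 or 1 with any of 11 of the 34 libraries left out, and to 0 in a fit that did not match the strains by time point. The 1 member called was higher in sta6, not lower, without the pre-wash or the 4 h library of either strain or the 0 h library of sta6. After median-of-ratios scaling 1 member was called, also higher in sta6.

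**Figure D5:**
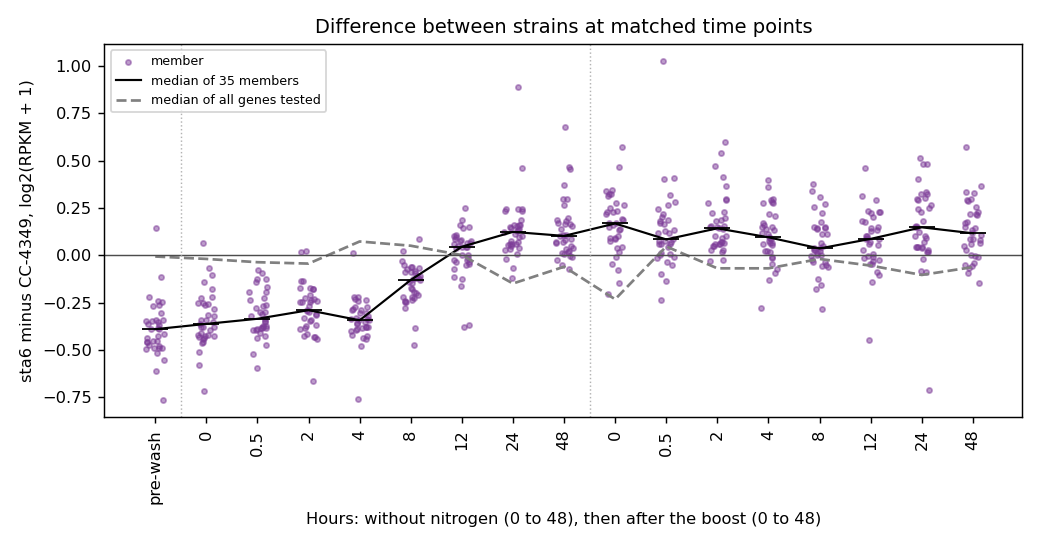
Difference between the strains, sta6 minus CC-4349, in log2(RPKM + 1) (y axis) at each matched time point (x axis, hours), with 1 point per member, the median of the 35 members (black) and the median of all genes tested (grey, dashed). The member median goes from -0.39 before the wash through -0.13 at 8 h to 0.12 at 24 h without nitrogen.

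After the boost the members moved little. The labels list no cells kept past 48 h without the boost, so acetate and further time in culture cannot be told apart. In the early boost set against late starvation 0 members were called by limma, where 10.7% of models were called in either direction, 1.24% higher and 9.49% lower. At an unadjusted p under 0.05 1 member passed, Cre01.g027000, with a change of 0.14 ± 0.060 (limma adjusted p = 0.130). The median change was 0.060 log2 units for the members and -0.12 for all models, and the members ran from -0.063 for Cre03.g210050 and -0.059 for Cre02.g075700 to 0.14 for Cre01.g027000. Cre08.g382500, Cre12.g498250 and Cre12.g520500 each stood between 0.11 and 0.12, and Cre10.g456200 and Cre17.g701200 at 0.018 and 0.019. After median-of-ratios scaling 13 members were called, all higher, with a median of 0.24 (1158 models in either direction). After quantile normalization 0 members were called (1057 models), with a median of -0.0063. The difference between the strains in the change from late starvation to the early boost called 0 members (0.00689% of models were called higher). At an unadjusted p under 0.05 by limma it also called 0, with a median of -0.013.

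In the late boost set against late starvation 5 members were called higher, where 0.875% of models were, and 0 lower, where 1.77% were. They were Cre01.g027000, Cre06.g308250, Cre02.g102250, Cre07.g357850 and Cre02.g106600. These calls are of the change averaged over the strains. Within sta6 0 members were called higher (0.345% of models) and within CC-4349 1 (0.2%). Cre01.g027000 changed most, at 0.29 ± 0.056 (limma adjusted p = 0.00311). It had 4019, 4165, 4256 and 4520 RPKM in the late boost of sta6, against 3251, 3463 and 3538 RPKM in late starvation, and 4196, 3914, 4052 and 4327 RPKM in the late boost of CC-4349, against 3118, 3645 and 3499 RPKM in late starvation. The 2 groups did not overlap in either strain. The median change over the 35 members was 0.14, against -0.056 for all models, and Cre03.g210050 (-0.22), Cre02.g075700 (-0.11), Cre12.g498900 (0.013) and Cre12.g494050 (0.066) stood lowest. The count ranged from 2 to 9 when 1 library was left out and moved by over 1.5 times for 24 of the 34, to 9 without sta6 at 8 or 12 h without nitrogen, and to 0 after quantile normalization, where the median was 0.0083.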

How the data were processed

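RNA was sequenced from 34 samples of 2 strains. The authors deposited 1 table with a value per gene model and library, whose unit is not named. The deposited values were taken as RPKM from their properties, and reads were aligned with Bowtie, per the submitters' processing notes, which name no version. Build, annotation, counting rule and strand setting were not given in the sources used here, so reads shared by near-identical or overlapping genes cannot be told apart and no coordinates are printed. The name of the column for sta6 24 h into the boost ends unlike the other column names.

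Library totals were recovered from the steps of low values in 1007 models and give depth only. The reads of all 35 members came out whole within 0.05 reads, after 1 library was corrected for a common factor. No count test was used, since the values are RPKM. Totals ranged from 5.72 to 53.9 M reads, and intervals from reads would cover counting error only.

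Values were analysed as log2(RPKM + 1), which understates changes of low genes. Models with a mean of at least 1 RPKM (14513) entered limma 3.58.1 (R 4.3.3, eBayes with a trend, 12 strain-by-phase groups, 22 residual degrees of freedom), and the fit of the strain difference took time point as a block. On simulated data with 200 changed genes of 14513, late starvation recovered 15.5% of genes changed by 0.5 on the log2 scale, 79% by 1 and 91.5% by 1.5, with 1, 7 and 9 false calls. The changed genes were drawn from those of higher level, and noise was independent between libraries. In the data 9346 models were called for late starvation. The simulated rates therefore do not carry over to the members or to successive samples of the same culture. Labels do not say that samples came from separate cultures.

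The members and lists were chosen with earlier results of these data known. Members are named where they are among the 3 highest or lowest by mean level, the 4 highest or lowest by change in late or early starvation or in either boost, the 3 highest or lowest by strain difference, the 3 farthest from the median profile, or called against most called members. Other names were added after values were seen, as stated. The reference table (assembly Chlamydomonas_reinhardtii_v5.5) matched 34 of 35 members and gave no other symbol, so lists of other translation genes, promoter motifs and protein features were not used here. Alternatives were the pseudocount, the filter, 2 other scalings, the time point block, other groupings of libraries and each library left out.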

Additional observations from a re-analysis of the deposited data

Results flagged for a closer look

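The change from replete cells to late starvation differed between the strains for 26 members, by a test of the difference itself. Among the members named for this change the differences, sta6 minus CC-4349, were 0.42 log2 units for Cre09.g400650, 0.53 for Cre12.g512600, 0.51 for Cre02.g102250, 0.55 for Cre02.g106600, 0.41 for Cre14.g621450 and 0.53 for Cre10.g417700.

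Single libraries stood apart from the other 3 of their late boost group in 5 of 60 groups of 4 tested, and chance flags about 1 in 20 such groups. The median member level of CC-4349 at 48 h after the boost was 3542 RPKM, below the 3682 to 3698 RPKM of the other 3. In sta6 at 24 h after the boost Cre01.g011000 stood at 4436 RPKM, above 3641 to 3766 RPKM, Cre10.g417700 at 5265 RPKM, above 4355 to 4482 RPKM, and Cre12.g494050 at 6476 RPKM, above 5897 to 5995 RPKM. That library is the one whose column name differs from the others in its end. Cre02.g102250 in CC-4349 at 8 h after the boost stood at 4582 RPKM, above 4421 to 4432 RPKM.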

How the results depend on the processing

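The member counts and member medians of late starvation by strain, of the early boost by strain, of the comparisons of phases over both strains and of the strains over all times, in replete cells and in late starvation were recomputed, and 777 of 862 such values stayed near the reported one. Counts within 1 strain, counts at 2-fold, the strains in other phases and the late boost set against replete were not recomputed. The late starvation rise over both strains was called for 30 to 34 members under every alternative and with each library left out. After median-of-ratios scaling the members called numbered 30 in early starvation, 1 in middle starvation, 13 in the early boost and 3 in the late boost. They numbered 17 for late starvation by strain, 8 for strains in replete cells and 13 for strains in late starvation. For the strain difference over all times this scaling called 1, higher in sta6. The member medians under it were -0.26 in early, 0.039 in middle and 0.41 in late starvation, 0.24 in the early and 0.21 in the late boost, 0.65 for late starvation by strain, -0.15 for the early boost by strain and 0.29 for strains in late starvation. Members that changed sign under it were Cre02.g106600 (-0.21), Cre01.g011000 (-0.21), Cre02.g102250 (-0.21) and Cre12.g494050 (-0.22) in early starvation, and Cre03.g210050 (0.11) and Cre02.g075700 (0.12) in the early boost. After quantile normalization the members called numbered 21 in early starvation, 0 in the late boost, 4 for late starvation by strain and 20 for the strain difference (2 higher and 18 lower). The models called in either direction numbered 5933, 380, 400 and 6900 in the same order, and 8926 in late starvation. The medians under it were 0.19 in early, 0.45 in middle and 0.50 in late starvation, -0.0063 in the early and 0.0083 in the late boost, 0.27 for late starvation by strain, -0.28 for strains in replete cells and -0.056 for strains in late starvation. Members that changed sign under it were Cre02.g091100 (0.21) and Cre01.g027000 (0.088) in early starvation, Cre14.g621450 (-0.042) in late starvation, Cre10.g456200 (-0.039) and Cre17.g701200 (-0.021) in the early boost, and Cre12.g498900 (-0.043) and Cre12.g494050 (-0.031) in the late boost. The cause of these shifts was not tested.

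The late boost count was 3 with a pseudocount of 0.1, 3 with no filter on low values and 2 without the libraries at 0 h after the boost. The strain difference over all times called 0 members with no filter and 0 without the 0 h libraries and those at 0.5 h after the boost. Leaving out those same libraries gave 7 members for late starvation by strain and 7 for strains in replete cells, where fewer samples entered the fit, and the pre-wash libraries alone as replete gave 6 and 6. Without the libraries at 0 h after the boost late starvation by strain called 16 and strains in late starvation 2, Cre10.g456200 (-0.011) and Cre17.g701200 (-0.063) changed sign in the early boost, and Cre12.g498900 (-0.011) did in the late boost. With 1 library left out, the late boost count ranged from 2 to 9, late starvation by strain from 14 to 28, the strain difference from 0 to 4, strains in late starvation from 3 to 10 (10 without sta6 at 8 h without nitrogen and 9 without sta6 at 12 h) and the middle starvation median from 0.24 to 0.42. The early boost change ranged from -0.21 to 0.11 for Cre03.g210050, from -0.0024 to 0.043 for Cre10.g456200 and from -0.030 to 0.067 for Cre17.g701200. The early starvation change of Cre12.g494050 ranged from -0.0021 to 0.046 and the late boost change of Cre12.g498900 from -0.0042 to 0.028.

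Time points matched between the strains deviated together at 15 of 17 points (correlation over 0.1), with a lowest correlation of -0.10. The 17 values are not all separate, since pre-wash and 0 h share 1 value (0.61), as do 8 and 12 h (0.63). The comparisons between phases and of the strains within a phase were fitted without pairs, because not every point passed. Where deviations are shared, the p-values of changes averaged over the strains are too small in this respect. The strain difference over all times was fitted with them, since the labels give the same times in both strains. As a hint from the data, the time point as a replicate block (consensus correlation 0.53) left 34 members called in late starvation, gave 31 for late starvation by strain and 31 for strains in replete cells, 14 for strains in late starvation and 0 for the late boost. With no replicate block the strain difference over all times called 0 members and 2420 models, against 3 members and 6701 models with it.

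The 34 abundant members held at least 3037 reads in every library, so counting error was small for them.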
